A study of Rattus norvegicus with 6 samples.

Results

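The ASRN6LNC1A probes are a set of 3855 oligonucleotide probes on an Agilent array, 9.93% of the 38804 probes on it that are not controls. They were chosen by the start of their identifier alone, and no measured value entered the choice. Each of the 3855 had 1 spot, and each is also in the authors' deposited series table. RNA came from BMMSCs of rats, the stromal cells of the bone marrow that grow attached to plastic and give rise to bone, fat and cartilage. They had been isolated from femurs and kept in osteogenic medium for 7 days. There were 3 arrays of Wistar rats, the normal control, and 3 of GK rats, the strain that the labels place on the type 2 diabetes side. All cells of either group were induced, so no effect of induction was measured, and strain and diabetes cannot be told apart. Samples carry replicate numbers, but no label ties them to separate animals, so a p-value here reflects the spread among these samples only, which may be technical.

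The letters LNC in the identifier point to long noncoding RNA, but no column of the files says so. The systematic name of every one of the 3855 probes repeats its identifier, and 0 of the 3855 matched the RefSeq gene table. The probes are therefore given by identifier, without a gene, a position or a sequence. Across the array 30 probes could be matched to a gene symbol. None of 31 marker genes of stromal, bone, blood, endothelial, fat and muscle cells was among them, so the cell type in the labels could not be checked.

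Long noncoding RNAs are transcripts that do not encode a protein, and many are capped, spliced and polyadenylated like messenger RNAs. They are known for lower levels and for more cell type restriction than messenger RNAs. In stromal cells that turn into osteoblasts, several of them, H19 and Meg3 among them, have been described as regulators, some by binding microRNAs and some by guiding chromatin proteins. Whether any probe of the set reads one of these transcripts is not known here.

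Across the array, between 65.1% and 77.3% of all probes were well above background, a flag of the scanner software for spots clearly brighter than their surroundings. Processed signals had a 75th percentile of 171.6 to 234.8, depending on the array. No ASRN6LNC1A spot was saturated, and at most 2 on an array carried an outlier flag. The 3 Wistar arrays and GK replicate 1 were taken to lie on the same slide, and GK replicates 2 and 3 on another. This was inferred from a barcode field of the file headers, read as the array position. In sample order, a value already seen came up again at GK replicate 2. The labels name no batch, so the slides named below are inferred in this way only. The number of arrays limits the precision.

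A smaller share of ASRN6LNC1A probes was well above background than of the largest set on the array, ASRN6AP1B, whose 28287 members serve as the comparison. On Wistar replicates 1, 2 and 3, 1891, 2079 and 2168 of the ASRN6LNC1A probes were well above background. On GK replicates 1, 2 and 3 the counts were 2452, 1899 and 2297. The groups overlapped, since GK replicate 2 lay between Wistar replicates 1 and 2. As shares these counts ran from 49.1% to 63.6%, against 72.4% to 83.5% of the ASRN6AP1B probes on the same arrays.

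Over all arrays, 1181 ASRN6LNC1A probes (30.6%) were well above background on none, 971 (25.2%) on 1 to 5, and 1703 (44.2%) on all 6. For ASRN6AP1B the shares were 12.7%, 19.6% and 67.6%. A larger share of this set than of ASRN6AP1B was thus well above background on no array. That does not make these probes dark. A looser flag of the scanner software, positive and significant against background, marked 2729 to 3236 ASRN6LNC1A probes on an array, and 2446 on all 6. More ASRN6LNC1A probes had the larger number of well above background arrays in GK (587) than in Wistar (220), and so did ASRN6AP1B (3644 against 1059). The dimmest signal that still counted as well above background, on the log2 scale relative to the array's 75th percentile, was -5.35 on GK replicate 1 and -5.22 on GK replicate 3. It was -4.49 on GK replicate 2 and -4.78 to -4.45 on the Wistar arrays. The arrays with the lowest such threshold were thus the arrays with the most detected probes, and the part of the threshold in the counts was not tested.

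Levels are given on the log2 scale relative to the 75th percentile of each array, taken over probes that are not controls, so that 0 is a signal at that percentile. The signal of a probe depends on how well it binds its target as well as on the amount of RNA, so the order of probes by signal is not an order of transcripts by abundance. The mean level over the 6 arrays had a median of -4.32 over all 3855 ASRN6LNC1A probes, with quartiles of -6.34 and -2.04, against a median of -2.09 for ASRN6AP1B. Only 414 (10.7%) were brighter than the 75th percentile, against 30.9% of ASRN6AP1B. The median of the negative control spots lay between -7.47 and -6.54, so the lower quartile of the set was close to the signal of spots with no target. Among the 1703 probes well above background on all arrays the median was -1.72, against -0.55 for ASRN6AP1B.

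A small number of bright probes carried most of the set's signal. The 10 brightest ASRN6LNC1A probes held 32.5% to 37.0% of the summed processed signal of the set on an array, and the 100 brightest held 85.6% to 89.9%. ASRN6LNC1A100109937V3 was the brightest, at 9.38, 9.28 and 9.04 on the Wistar arrays and 8.92, 9.40 and 8.97 on the GK arrays. Its values in the groups overlapped. The next 5 by mean level were ASRN6LNC1A100004144V3, ASRN6LNC1A100003050V3, ASRN6LNC1A100608220V3, ASRN6LNC1A100007358V3 and ASRN6LNC1A100004221V3. Their means over the arrays lay between 8.60 and 9.04, and none of the 6 had a limma adjusted p under 0.05 for GK against Wistar (the smallest was 0.561, for ASRN6LNC1A100007358V3).

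The spread between arrays of a group was close to that of the comparison set once signal level was taken into account. The median SD within groups was 0.35 over the 2166 ASRN6LNC1A probes that could be tested, and 0.32 for ASRN6AP1B. The tested ASRN6LNC1A probes were cut into 10 bins of equal size by mean level, and ASRN6AP1B was averaged over the same bins with the same weights. The bin medians of the SD then averaged 0.36 for ASRN6LNC1A and 0.35 for ASRN6AP1B. In either set the dimmest bin was the noisiest, at 0.58 and 0.56, and in 7 of the 10 bins the ASRN6LNC1A median was the higher.

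The steadiest probe with a clear signal on every array was ASRN6LNC1A100004802V3, at 0.54, 0.56 and 0.56 on the Wistar arrays and 0.59, 0.62 and 0.64 on the GK arrays. Its SD within groups was 0.019. ASRN6LNC1A100003709V3 and ASRN6LNC1A100001005V3 followed, with SDs of 0.023 and 0.046. At the other end ASRN6LNC1A100007300V3, ASRN6LNC1A100005164V3 and ASRN6LNC1A100005869V3 had SDs of 2.33, 2.01 and 2.00. ASRN6LNC1A100005869V3 read 0.18 on Wistar replicate 1 and 0.60 on GK replicate 3, and between -3.46 and -2.82 on the other 4 arrays. Its high arrays thus came from different groups.

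GK was compared with Wistar over all 27920 probes of the array that were well above background on at least 3 arrays and measured on at least 2 of each group. Of the 3855 ASRN6LNC1A probes, 2166 (56.2%) entered, and the others were well above background on fewer than 3 arrays. A probe that is bright in a single group passes this filter through that group alone, so the tested probes do not stand for the whole set. At a limma adjusted p under 0.05, with Benjamini-Hochberg adjustment over all 27920, 11 ASRN6LNC1A probes passed. That is 0.508% of those tested, against a background of 0.358% over all probes (100 of 27920). Higher in GK were 6 (background 0.197%) and lower were 5 (background 0.161%). The count is small, so this share is near the background. At an unadjusted limma p under 0.05 there were 253 (11.7%, background 12.6%), and the groups did not overlap in 352 (16.3%, background 18.6%). At least 2-fold apart were 155, or 7.16% (background 7.88%). Counting only probes well above background on all 6 arrays, 6 of 1703 ASRN6LNC1A probes passed (0.352%), against 56 of 23347 over the array (0.240%).

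Of the 11 probes that passed, 6 were well above background on all arrays. ASRN6LNC1A100001650V3 was the largest of these. It read 1.49, 1.30 and 1.16 on the Wistar arrays and 3.72, 4.06 and 3.48 on the GK arrays. Every GK array lay well above every Wistar array. The GK mean was 5.41-fold higher, a log2 difference of 2.44 (standard error 0.22, limma adjusted p = 0.0117).

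ASRN6LNC1A100330825V3 read -2.52, -2.18 and -2.54 on the Wistar arrays and 0.25, 0.15 and -0.56 on the GK arrays. It was 5.14-fold higher in GK (log2 difference 2.36, standard error 0.27, limma adjusted p = 0.0266). ASRN6LNC1A100005890V3 read -3.28, -3.41 and -3.33 in Wistar and -1.61, -0.53 and -1.14 in GK. The Wistar arrays of this probe lay close together and the GK arrays further apart, with no overlap. Its GK mean was 4.75-fold higher (log2 difference 2.25, standard error 0.29, limma adjusted p = 0.0430).

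ASRN6LNC1A100099818V3 had the smallest difference of the 11 and the smallest spread. It read 0.43, 0.19 and 0.26 in Wistar and 1.61, 1.68 and 1.56 in GK. It was 2.50-fold higher in GK (log2 difference 1.32, standard error 0.18, limma adjusted p = 0.0458).

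In the other direction, ASRN6LNC1A100008190V3 read 1.07, 0.54 and 0.53 in Wistar and -1.61, -1.05 and -1.56 in GK. It was 4.34-fold lower in GK (log2 difference -2.12, standard error 0.25, limma adjusted p = 0.0327). ASRN6LNC1A100000259V3 read 1.59, 1.19 and 1.25 in Wistar and -0.47, -0.23 and -0.21 in GK. For either probe all 3 GK arrays were below 0 and all 3 Wistar arrays above it. The second was 3.14-fold lower in GK (log2 difference -1.65, standard error 0.20, limma adjusted p = 0.0343).

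The other 5 of the 11 were well above background in a single group, so their differences are known only as bounds. For a bound, a dim-group array was given the probe's own signal or the lowest signal counted as well above background there, whichever was higher. The mean of these was compared with the mean of the bright group. The adjusted p beside each bound is that of the fit to the signals as measured, those not well above background included. The bound itself was not tested. ASRN6LNC1A100424481V3 read 0.44, -0.61 and 0.56 on the Wistar arrays, and -5.40, -5.35 and -6.96 on the GK arrays. It was at least 35.5-fold higher in Wistar (limma adjusted p = 0.00917). ASRN6LNC1A100073226V3 read 0.24, -0.77 and 0.48 in Wistar and -5.82, -5.06 and -5.62 in GK, and was at least 32.1-fold higher in Wistar (limma adjusted p = 0.00473). These probes were near the array's 75th percentile in Wistar cells and not well above background on any GK array. In either, Wistar replicate 2 was the lowest of the Wistar arrays.

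ASRN6LNC1A100004436V3, also brighter in Wistar, read -3.75, -1.59 and -3.19 there and -7.27, -6.71 and -7.47 in GK, at least 4.51-fold higher in Wistar (limma adjusted p = 0.0403). ASRN6LNC1A100000650V3 was not well above background on any Wistar array, at -6.46, -6.78 and -6.76, and read -2.61, -2.11 and -2.64 on the GK arrays. Its Wistar values were near the median of the negative control spots, and it was at least 4.62-fold higher in GK (limma adjusted p = 0.00203). ASRN6LNC1A100007431V3 read -6.50, -6.78 and -6.78 in Wistar and -4.32, -4.13 and -4.86 in GK. It was at least 1.17-fold higher in GK (limma adjusted p = 0.0210), the smallest bound of the 5.

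ASRN6LNC1A100000650V3 and ASRN6LNC1A100073226V3 passed with each of the 6 arrays left out in turn. ASRN6LNC1A100424481V3 did not pass without Wistar replicate 1 (adjusted p = 0.0537) or without Wistar replicate 3 (0.0518). ASRN6LNC1A100005890V3 passed without GK replicate 1 and without GK replicate 3, and ASRN6LNC1A100004436V3 without Wistar replicate 2 and without GK replicate 3. The other 6 passed only without GK replicate 3. With the slide as a fixed block none of the 11 passed, and with GK replicate 1 alone against the Wistar arrays of its slide only ASRN6LNC1A100000650V3 did (adjusted p = 0.0499). In these fits the difference rests on a single GK array, and for ASRN6LNC1A100001650V3 it was 2.41. As a random block the slide left 7 of the 11. Normexp background correction of the median signals adds an offset of 50 to each signal. It gave a smaller difference for each of the 11, the 5 known only by a bound included. With it ASRN6LNC1A100424481V3 had a log2 difference of -2.13 (adjusted p = 0.0254) and ASRN6LNC1A100073226V3 of -2.07 (adjusted p = 0.0334). In size each was below its bound of at least 35.5-fold and at least 32.1-fold, or 5.15 and 5.01 log2 units. These bounds thus do not carry over to normexp. In the authors' series table the differences of these probes were -5.41 and -5.12. With normexp ASRN6LNC1A100000650V3 had a log2 difference of 0.70 and an adjusted p of 0.149, and ASRN6LNC1A100007431V3 of 0.17 and 0.801. The same setting gave ASRN6LNC1A100004436V3 -0.67 and 0.315, and ASRN6LNC1A100005890V3 0.91 and 0.126. ASRN6LNC1A100000650V3, ASRN6LNC1A100007431V3 and ASRN6LNC1A100004436V3 were also below their bounds there.

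Just outside the threshold were ASRN6LNC1A100010447V3, at 2.37, 2.29 and 2.09 in Wistar and 3.91, 3.94 and 3.33 in GK (limma adjusted p = 0.0765), ASRN6LNC1A100003715V3 (0.0785) and ASRN6LNC1A100001902V3 (0.0846). Between adjusted p of 0.05 and 0.1 there were 3 ASRN6LNC1A probes. Under 0.1 there were 14 of the 2166 tested, against 251 of 27920 over the array, a lower share on a small count.

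In all, 26 ASRN6LNC1A probes were well above background on all 3 GK arrays and on no Wistar array (0.674% of the set), and 7 (0.182%) showed the reverse. For ASRN6AP1B the counts were 220 (0.778%) and 23 (0.0813%), so the larger count on the GK side was found there too. These probes entered the comparison only through the group in which they were bright, so the number of them that passed is not a result about the set. The 26 were dim where they were detected, with a median GK level of -4.10. Their median bound was at least 1.38-fold, 4 had a bound of at least 2-fold, and 1 gave no fold. The 7 detected in Wistar alone had a median level of -2.95 there and a median bound of at least 4.17-fold, and in 6 the bound was at least 2-fold.

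Among the 26, the largest differences besides the 2 that passed were those of ASRN6LNC1A100299384V3, ASRN6LNC1A100333355V3 and ASRN6LNC1A100204935V3. ASRN6LNC1A100299384V3 read -5.92, -5.89 and -4.69 in Wistar and -1.27, -2.50 and -4.97 in GK. GK replicate 3 lay within the Wistar values, and the difference did not pass (limma adjusted p = 0.312). ASRN6LNC1A100333355V3 and ASRN6LNC1A100204935V3 had adjusted p of 0.245 and 0.310. On the Wistar side, ASRN6LNC1A100003715V3 and ASRN6LNC1A100001634V3 followed the 3 that passed. ASRN6LNC1A100001634V3 read -3.88, -2.34 and -3.46 in Wistar and -5.33, -5.40 and -6.01 in GK (at least 3.45-fold higher in Wistar, past the threshold in none of the alternative fits).

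Of the 5 largest differences in the lower direction, counting probes with a clear signal on every array, 4 did not pass, and in these GK replicate 3 departed from the other GK arrays. ASRN6LNC1A100007300V3 read 0.39, 2.19 and 3.11 in Wistar, -3.36 and -3.06 on GK replicates 1 and 2, and 1.97 on GK replicate 3. ASRN6LNC1A100005164V3 read 1.60, -0.55 and 0.20 in Wistar, then -3.99, -3.50 and 0.79 in GK. ASRN6LNC1A100007669V3 read 1.01, 2.90 and 4.18 in Wistar and -0.64, -0.65 and 2.57 in GK. ASRN6LNC1A100006745V3 read -2.75, -1.21 and 0.07 in Wistar and -4.49, -4.41 and -1.58 in GK. In all 4, GK replicates 1 and 2 were below every Wistar array, and GK replicate 3 lay among the Wistar values. Their log2 differences ran from -3.38 to -2.20, with adjusted p between 0.407 and 0.456. Without GK replicate 3 ASRN6LNC1A100007300V3 was at -5.10 (adjusted p = 0.0304) and ASRN6LNC1A100005164V3 at -4.16 (adjusted p = 0.0305), while ASRN6LNC1A100007669V3 and ASRN6LNC1A100006745V3 had adjusted p of 0.119 and 0.103.

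On the higher side, ASRN6LNC1A100006236V3 (log2 difference 2.02, limma adjusted p = 0.310) and ASRN6LNC1A100475889V3 (1.65, 0.135) did not pass. ASRN6LNC1A100475889V3 read -0.62, -0.49 and -1.12 in Wistar and 0.89, 1.52 and 0.31 in GK, with no overlap. Without GK replicate 3 its difference was 1.94 (adjusted p = 0.0373). The number of ASRN6LNC1A probes that passed was 31 of 2166 (1.43%) without GK replicate 3, and all 11 were among them. Over the whole array 664 probes (2.38%) passed in that fit, so the count rose across the array and the share of ASRN6LNC1A was below that of all probes. In 13 of the 31, GK replicate 3 was nearer to the Wistar mean than to the mean of GK replicates 1 and 2. Across the 1703 ASRN6LNC1A probes well above background on all arrays, GK replicate 3 correlated at 0.958 with GK replicate 1 and at 0.972 with GK replicate 2, and at 0.962, 0.971 and 0.973 with Wistar replicates 1, 2 and 3, as a description over probes that share labelling and array.

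As a set, the ASRN6LNC1A probes leaned to lower means in GK. Of the 2166 tested, 1295 (59.8%) had a lower mean in GK, against 50.4% of all tested probes and 48.2% of ASRN6AP1B. The median log2 difference was -0.091, against -0.0040 and 0.016. In each of the 10 level bins the share was higher for ASRN6LNC1A (53.5% to 64.5%) than for ASRN6AP1B (46.7% to 51.4%). Averaged over the bins it was 59.8% against 48.7%. Probes on an array are not independent, and no test was made of this difference.

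The arrays did not line up by group in this lean. Each tested ASRN6LNC1A probe was set against its own mean over the arrays. The median of these deviations was -0.049, 0.029 and 0.14 on Wistar replicates 1, 2 and 3, and 0.13, -0.11 and -0.14 on GK replicates 1, 2 and 3. GK replicate 1 was thus among the highest, with Wistar replicate 3. The 2 lowest were GK replicates 2 and 3, the arrays taken to lie on the other slide. Against the Wistar mean, 42.2% of the ASRN6LNC1A probes were lower on GK replicate 1, 62.1% on GK replicate 2 and 62.7% on GK replicate 3. For ASRN6AP1B these shares were 44.5%, 47.1% and 54.6%. Within the shared slide, or with the slide as a fixed block, 915 of 2166 (42.2%) were lower in GK. The median difference was 0.098, so the direction turned. The median over all tested probes moved up as well, to 0.071, and that of ASRN6AP1B to 0.071. For GK replicates 2 and 3, the inferred slide and the group cannot be told apart.

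Taking the level-averaged ASRN6AP1B deviation off each array narrowed the differences between arrays and put GK replicate 1 below the Wistar arrays. The remainder was 0.028, 0.037 and 0.069 on the Wistar arrays, -0.0061 on GK replicate 1, and -0.081 and -0.072 on GK replicates 2 and 3. On this measure the groups did not overlap, but GK replicate 1 was nearer to the lowest Wistar array than to the other GK arrays.

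The identifier number parts the set in a way that the rule for its members did not use. The numbers run from 28 to 730739. Of the 3855 probes, 2978 (77.3%) have a number under 10000 and 877 a higher one. The files do not say what the number stands for, and the division at 10000 was chosen after the numbers were seen. Of the probes with low numbers, 35.1% were well above background on no array, against 15.5% of those with high numbers. Their median level was -4.74, against -3.17.

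The lean to lower means in GK was more frequent among the low numbers. Among them 970 of 1534 tested (63.2%) were lower, with a median difference of -0.12, and the share was over 50% in all 10 level bins. Among the high numbers it was 325 of 632 (51.4%) with a median of -0.020, and the share was over 50% in 5 of the 10 bins, the smallest of which held 48 probes. Averaged over the level bins the shares were 63.2% and 50.9%. In ASRN6AP1B the low numbers were also more often lower in GK, at 52.4% of 1257 with a median of -0.021, against 48.0% of 21085 with a median of 0.018. Within the shared slide the ASRN6LNC1A shares were 43.5% for low numbers and 39.1% for high ones. The low numbers were thus the more often lower there too, but the majority was higher in GK for either range. Of the 11 probes that passed, 7 had low numbers (0.456% of the 1534 tested) and 4 high ones (0.633% of the 632). The background over all tested probes was 0.358%.

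Probes with neighbouring numbers were not alike in level. There were 2281 pairs with consecutive numbers. Their median absolute difference in level was 2.37, against 2.60 over all pairs of the set, and the correlation of level within a pair was -0.017. The difference between GK and Wistar correlated at 0.0010 over the 570 consecutive pairs with both members tested, and 56.5% of these pairs had the same sign, against 51.9% of all tested pairs. These are descriptions across probes of the same arrays. All pairs take in low and high numbers together, and the consecutive pairs were not matched to them by range. The part of the range in these comparisons was not tested.

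The precision of a single comparison sets what could be seen. The median half-width of the 95% interval of a tested ASRN6LNC1A probe was 0.65 log2 units (1.56-fold). The median absolute difference was 0.25, so most of the set's differences lay well within it. The 1181 probes well above background on no array did not enter this comparison, so it says nothing of a difference in them. With no filter on dim probes, 7 of 3855 passed, 6 of them among the 11, against 76 of 38760 over the array.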

How the data were processed

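Each of the 6 samples had its RNA labelled with Cy3 and put on its own array. The deposited scanner values are linear intensity, written per the file headers by Agilent Feature Extraction 11.0.1.1, background-corrected but not normalised between arrays. Its flags of 0 or 1 were used as deposited. The authors' deposited series table holds log2 values whose normalisation no label or header states. Its columns followed the scanner values of their own arrays in rank (Spearman's rho 0.992 to 0.995), with column medians near 4.84, and its centring stays unknown.

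Spots flagged as feature outliers were left out, spots of a probe averaged, and log2 signals taken relative to each array's 75th percentile. limma 3.58.1 in R 4.3.3 (lmFit, eBayes) was fitted to all 27920 probes that passed, two-sided, without a block. The procedure was tested on simulated data. Named were all probes that passed, the 6 brightest, the 5 largest differences each way among probes above background on every array and among those detected in a single group, and the 3 largest and smallest spreads. None of 12 listed long noncoding RNA genes had a probe with a name. The members, lists and tests were chosen with earlier results of these data known. The division by identifier number was chosen after seeing the data. Alternatives were other scalings, background correction, filters, a variance trend, blocks, and arrays left out.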

Additional observations from a re-analysis of the deposited data

How the results depend on the processing

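The count of 11 ASRN6LNC1A probes at a limma adjusted p under 0.05 was 6 when scaled to the array median, 7 with normexp, 7 with no filter on dim probes, 6 when only the 1703 probes detected on all 6 arrays were tested, 0 with the slide as a fixed block (where 247 had an unadjusted p under 0.05), 1 within the shared slide and 7 when the slide was a random block. With arrays left out in turn it ranged from 2 to 31 (31 without GK replicate 3). The count over all probes moved as well, from 100 to 75 with the array median, 62 with normexp, 76 with no filter, 64 with the strict filter, 7 with the fixed block, 23 within the shared slide and 65 with the random block, and 31 to 664 with arrays left out. The ASRN6LNC1A count was 9 to 14 with the authors' table, quantile scaling, kept outlier spots, the other percentile, the other filter and the variance trend. Over all probes the count in these settings was 96 to 123. All 11 kept their direction wherever they were tested, but groups that do not overlap cannot reverse when arrays are left out. The replicate number as a block gave 8 ASRN6LNC1A probes, 6 of them among the 11, and 77 over all probes. Deviations of same-numbered arrays correlated at -0.053, 0.022 and 0.28 over the set, so the numbers were not taken as pairs. The count of probes lower in GK was 2392 of 3855 with no filter on dim probes and 1130 to 1407 with each array left out, a share of 52.3% to 65.1%. It was 66.7% with normexp, where ASRN6AP1B was at 54.4%. Probes well above background on every array numbered 1703, and 2446 with the positive and significant flag in its place. The median level of -2.38 over tested probes depends on the zero of the scale. It was 0.41 with the median, -4.21 with the percentile over probes above background on all arrays, -1.38 with normexp, -4.32 with no filter and -1.72 with the strict filter. The cause of these changes was not tested. For 5 of the 11 the dim group's signal allows only a bound.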
